A study of Mus musculus with 15 samples.

Results

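The H3K27Ac peak list of islets from mice on a high-fat diet with the AMPK activator O304 (HFD-O304) was compared with the list of islets from mice on the high-fat diet alone (HFD). H3K27Ac is acetylation of lysine 27 of histone H3, measured here by chromatin immunoprecipitation and sequencing (ChIP-seq). Peaks of the 2 lists that overlapped by at least 1 bp on chromosomes 1 to 19 were joined into regions, which gave 24430 regions from 40808 of the 41979 peaks in both lists. The series holds 111297 peaks in 6 lists, which also cover a regular diet and the mark H3K27Me3. Of the regions, 15951 held a peak in both lists (shared), 3577 held one in HFD-O304 alone (gained) and 4902 held one in HFD alone (lost). All mice were male CBA mice on their diet from 10 weeks of age, and their islets were isolated at 20 weeks. The HFD-O304 diet held 0.8 mg of O304 per g. Both groups ate the high-fat diet, so the comparison bears on the drug within that diet. About 600 hand-picked islets, pooled, went into each immunoprecipitation. The 2 replicate libraries of a group were merged before peaks were called, so each group has 1 list, no value below has a replicate error and no test was made.

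Acetylation of H3K27 marks promoters and enhancers in use and is laid down by the acetyltransferases p300 and CBP, whereas trimethylation of the same residue is the mark of Polycomb repression. AMPK is a kinase that senses low cellular energy, and O304 was described as a compound that keeps its activated form from being dephosphorylated. Beta cells depend on a small set of transcription factors, among them PDX1, MAFA, NKX6-1 and NEUROD1, and under metabolic stress they can lose MAFA and gain the aldehyde dehydrogenase ALDH1A3.

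The HFD-O304 list rested on 84694188 fragments kept after removal of duplicates and the HFD list on 95218072. Levels are given as the mean pileup of fragments in a peak over the uniform background, which is the pileup that these fragments would give if spread evenly over the genome (12.2 fragments per base in HFD-O304 and 13.7 in HFD). The lowest level called was 2.37 times background in HFD-O304 and 2.26 times in HFD. A log2 change is that of the level in HFD-O304 over the level in HFD, and its 95% interval covers counting error of the estimated fragments only. A change by a ratio of at least 5 to 4 (0.322 on the log2 scale), in either direction, was counted as a call. The label of the tissue was checked by peaks within 1000 bp of a start site (the promoter). Of 8 beta cell markers, 6 had a promoter peak in HFD-O304 and 7 in HFD, and Iapp had none in either. The alpha cell markers Gcg and Irx2 had no promoter peak in either list, nor had the delta cell markers Sst and Hhex. None of 7 acinar, 5 immune and 5 stromal markers had a promoter peak in either list. Of 4 ductal markers Krt7 had a peak in both lists and Krt19 in HFD-O304 alone, at 2.48 times background. Of 5 endothelial markers, Erg had a peak in HFD-O304 alone, at 2.46 times. In such bulk tissue, fewer cells of a type and less mark per cell cannot be told apart.

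Sequences at loci that the results turn on are given first. The promoters are the 250 bases upstream of the RefSeq start site in GRCm38.p6, written 5′ to 3′ on the gene's strand. Ins1 (plus strand) and Scg2 (minus strand), a hormone gene and a granule gene, had a peak in 1 list only. The Ins1 peak lay downstream of the start site, outside the sequence printed, and the Scg2 peak overlapped its sequence only in part. Ap1s3 (minus strand) was among the strongest gained promoters, Cyb5b (plus strand) had one of the highest changes among shared promoters, and Fndc3b (minus strand) one of the lowest. The Plekha1 sequence is the central 300 bases (plus strand) of a lost region at -30709 bp from its start site, where a minus sign marks upstream. Capitals mark every match, on either strand, to 1 of 17 short motifs that were searched.
Ins1, chr19:52264047-52264296: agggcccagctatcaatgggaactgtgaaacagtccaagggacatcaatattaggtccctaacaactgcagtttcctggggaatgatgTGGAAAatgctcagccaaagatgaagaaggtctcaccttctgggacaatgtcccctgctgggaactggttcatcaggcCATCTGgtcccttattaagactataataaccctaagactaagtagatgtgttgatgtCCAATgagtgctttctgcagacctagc
Scg2, chr1:79440027-79440276: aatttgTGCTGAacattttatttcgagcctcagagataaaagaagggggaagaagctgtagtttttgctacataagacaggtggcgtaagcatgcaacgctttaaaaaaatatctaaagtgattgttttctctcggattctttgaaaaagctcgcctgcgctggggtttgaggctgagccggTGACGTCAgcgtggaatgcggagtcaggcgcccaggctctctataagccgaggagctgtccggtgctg
Ap1s3, chr1:79671973-79672222: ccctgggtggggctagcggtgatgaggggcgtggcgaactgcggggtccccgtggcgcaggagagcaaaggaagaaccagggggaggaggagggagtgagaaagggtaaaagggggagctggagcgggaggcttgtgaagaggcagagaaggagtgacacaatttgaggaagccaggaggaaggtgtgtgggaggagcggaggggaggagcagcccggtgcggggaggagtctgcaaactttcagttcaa
Cyb5b, chr8:107150411-107150660: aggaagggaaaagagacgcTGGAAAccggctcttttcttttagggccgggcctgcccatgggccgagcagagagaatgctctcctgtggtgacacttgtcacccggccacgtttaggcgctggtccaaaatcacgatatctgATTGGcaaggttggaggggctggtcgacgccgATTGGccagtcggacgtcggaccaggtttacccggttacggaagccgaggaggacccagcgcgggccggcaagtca
Fndc3b, chr3:27710453-27710702: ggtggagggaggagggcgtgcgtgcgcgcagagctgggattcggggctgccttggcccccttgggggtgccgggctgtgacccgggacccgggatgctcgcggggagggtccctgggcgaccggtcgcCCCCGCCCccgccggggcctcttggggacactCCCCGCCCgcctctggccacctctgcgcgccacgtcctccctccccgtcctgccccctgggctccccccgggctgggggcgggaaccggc
Plekha1 region, chr7:130834898-130835197: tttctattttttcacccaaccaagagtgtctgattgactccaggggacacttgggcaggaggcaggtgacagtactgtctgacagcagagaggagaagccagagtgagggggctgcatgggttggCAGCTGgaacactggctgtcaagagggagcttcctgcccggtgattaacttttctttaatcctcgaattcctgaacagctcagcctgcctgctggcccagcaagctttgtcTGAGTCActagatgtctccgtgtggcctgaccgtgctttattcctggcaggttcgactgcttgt
The 6 sequences differed in base composition. The Ins1 promoter had 46.4% G and C with no CG dinucleotide, the Fndc3b promoter 79.2% with 25, and the Cyb5b promoter 60.4% with 20. Scg2 carried a full cAMP response element (TGACGTCA) at position -68 from its start site, a sequence found in 1.55% of the 32851 RefSeq promoters of this length. Ins1 carried the E-box CAGATG (14.4% of these promoters) and a CCAAT box (33.9%), and Fndc3b carried the GC box GGGCGGGG (16.1%) at 2 positions. The Plekha1 region carried the AP-1 motif TGACTCA, present in the central 300 bases of 6.95% of lost regions outside promoters.

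The acetylated regions of both groups were largely the same, and most regions that were in 1 list only were short and weak. Shared regions had a median length of 1204 bp, against 439 bp for gained and 443 bp for lost regions. The median level of shared regions was 3.08 times background in HFD-O304 and 3.02 times in HFD. Gained regions had a median of 2.53 times background, and lost regions one of 2.44 times, both close to the lowest level called. A weak region can be missing from the other list at nearly the same level, so each was set against the lowest level called in the other list. Of the gained regions, 388 (10.8%) stood at least 0.322 above the HFD limit on the log2 scale, 36 reached 1.5 times that limit and 4 reached 2 times. Of the lost regions, 193 (3.94%) stood at least 0.322 above the HFD-O304 limit, 30 reached 1.5 times and 11 reached 2 times. Because the HFD list reached lower levels, only 3398 of the lost regions (69.3%) reached the HFD-O304 limit at all, and with 1 common limit of 2.37 for both lists the order turned, to 4287 gained and 3398 lost regions. With lists cut to the same length, gained and lost regions numbered 3920 and 4029.

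Regions in 1 list only lay mostly away from promoters in the lists as deposited. Promoters made up 61.9% of the shared regions (95% Wilson interval 61.2 to 62.7), but 15.9% of the gained regions (14.7 to 17.1) and 13.4% of the lost regions (12.4 to 14.3). The shares depended on the weak peaks. In 1 setting only peaks with a −log10 q of 5 or more were kept in both lists. Promoters then made up 50.9% of the gained and 48.9% of the lost regions. There a shared region counts as gained or lost where its peak in the other list fell under that limit. With absence judged against all peaks, promoters made up 30.8% of 237 gained and 24.4% of 443 lost regions. Gained regions were more often inside genes (50.7%, 49.0 to 52.3) than lost regions (44.2%, 42.8 to 45.6). Lost regions were more often intergenic, with 42.5% (41.1 to 43.8) against 33.4% of the gained regions. Repeats moved with that difference: 52.7% of the lost intergenic regions consisted of repeat-masked bases over at least 50% of their length, against 39.0% of the gained ones, and their part in the result was not tested. Without peaks of this kind the promoter shares came to 19.3% for gained and 18.9% for lost regions. The bar chart of region classes shows both the place of the regions and their level.

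**Figure D1:**
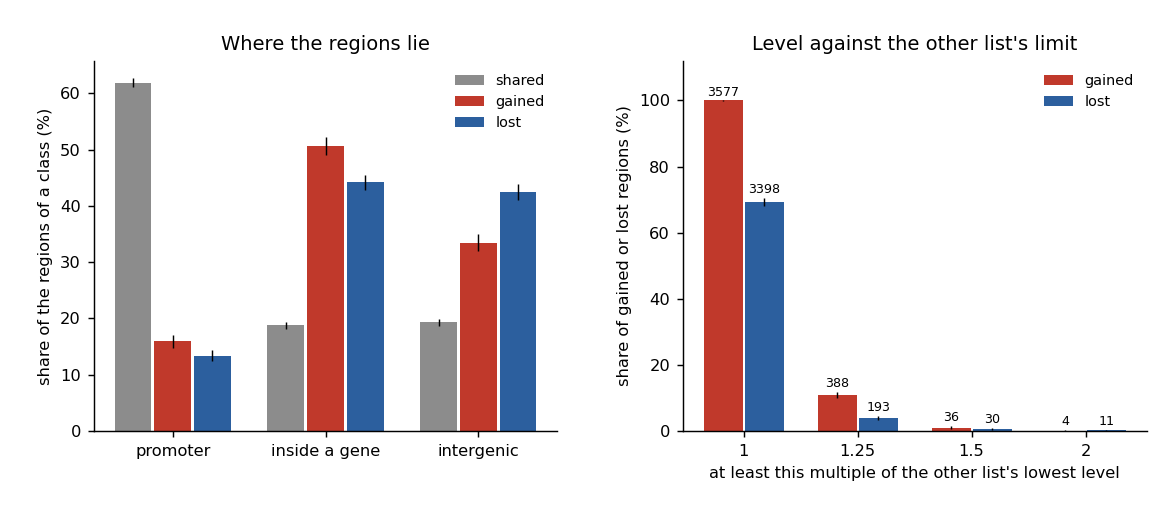
Left, share of shared, gained and lost H3K27Ac regions (percent of each class) at promoters, inside genes and between genes, with 95% Wilson intervals for counting error. Right, share of gained and of lost regions whose level over background reached rising multiples of the lowest level called in the other list, with the number of regions above each bar: at the second pair of bars (0.322 on the log2 scale) stand 388 gained and 193 lost regions.

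In shared regions the level of acetylation hardly moved. The median log2 change was 0.030 with an SD of 0.14 over regions, and 90% of the regions lay between -0.21 and 0.26. Of the 15951 shared regions, 323 (2.02%) were called higher in HFD-O304 and 183 (1.15%) were called lower. With levels centred on the median of the shared regions this split turned, to 206 higher and 278 lower. The counting interval left out 0 in 547 regions (3.43%), fewer than the 5% that a 95% interval leaves out by construction. Shared regions had to pass the calling limit in both lists, and each level was averaged within that list's own peak borders. This share therefore cannot show how alike the groups were. The median interval reached 0.34 to either side, so a single region of median size could not show a change of 0.322 at this depth. Weak promoters lay slightly higher and strong ones slightly lower in HFD-O304. Among shared promoters at 2.5 to 3 times background the median log2 change was 0.045, and among those at 5 times or more it was -0.028. The lowest level called was higher in HFD-O304 (2.37 times background) than in HFD (2.26 times), and its part in the values of weak promoters was not tested. In the called peaks, breadth varied more than height. Among shared regions, 1801 covered at least 1.5 times more bases in HFD-O304 and 2307 at least 1.5 times more in HFD. Borders followed each list's calling limit and height was averaged within them. The contrast therefore cannot show whether the mark itself differed in breadth or in height. In fragments above background, which count height and breadth together, 4015 shared regions were higher and 4087 lower by at least 0.322 on the log2 scale.

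Counted by gene, 10688 of 20780 protein-coding genes (51.4%) had a promoter peak in both lists. The promoters of 496 genes (2.39%) were gained and those of 609 (2.93%) were lost. Among 10674 genes with a shared promoter region, 209 (1.96%) were called higher in HFD-O304, 141 (1.32%) were called lower, and 44.8% lay lower by any amount. The median log2 change over these genes was 0.018.

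At the locus of Aldh1a3, the enzyme that marks stressed beta cells, the mark was narrower or absent in HFD-O304 islets. The gene occupies bases 66390890 to 66427517 of chromosome 7 and is read from the minus strand. HFD islets had a peak of 870 bp over the start site, at 2.50 times background, and HFD-O304 islets had none. That level was near the HFD-O304 limit of 2.37. A region at -70.7 kb from the start site was shared, with 332 bp at 2.62 times background in HFD-O304 against 1294 bp at 2.36 times in HFD. Its log2 change was 0.15 in level (-0.41 to 0.65) but -1.72 in fragments above background, which counts height and breadth together. A further HFD peak, at -114 kb and 2.47 times background, consisted of repeat-masked bases over its whole length. The start site and this last region also carried an H3K27Me3 peak in both diets. A peak just beyond the 3′ end of the gene, 39 kb from the start site, stood at 2.98 times background in HFD-O304 and 3.06 times in HFD. The locus maps show the 4 positions.

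Hormone and granule genes held the highest median of the gene lists with more than 1 measured promoter. Of 22 genes, 13 had a shared promoter, with a median log2 change of 0.11 against 0.018 for all genes. Above 0 lay 9 of the 13, and 30.8% lay below 0 against 44.8% of all genes. These promoters were weak, with a median level of 2.93 times background. At 2.5 to 3 times, shared promoters had a median log2 change of 0.045, and 36.9% of them lay below 0. The list's median stayed above 0 when levels were centred on the median of the shared regions (0.079) and in fragments above background (0.65). Chgb, a granin of the dense-core granule, stood at 4.90 times background in HFD-O304 and 4.19 times in HFD, a log2 change of 0.23 (-0.074 to 0.53). Pam, which amidates peptide hormones, stood at 3.92 and 3.43 times, and its peaks covered 1939 bp in HFD-O304 against 988 bp in HFD. Scg3 and Pcsk2, a granin and a prohormone convertase, had changes of 0.16 and 0.13, both with intervals that held 0. Cpe, the carboxypeptidase of insulin processing, went the other way in level, at 3.63 against 5.05 times background (-0.47, -0.78 to -0.16). The Cpe peak was also longer in HFD-O304, 1409 bp against 560 bp, so that its fragments above background came out higher, by 0.71 on the log2 scale.

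Scg2, Slc30a8 and Ins1 changed list at the promoter. That made 2 gained and 1 lost of the 22 genes, beside 2.39% gained and 2.93% lost over all genes. With only peaks of a −log10 q of at least 5, the counts turned to 1 gained and 2 lost. The Scg2 peak, at 3.08 times background and 330 bp long, was gained over the start site printed above. Slc30a8, the zinc transporter of insulin granules, gained a peak of 434 bp at 2.54 times background, close to the limit. Ins1 had lost a peak of 432 bp that stood at 3.12 times background in HFD and lay downstream of the start site, at chr19:52264533-52264964. The Ins2 promoter was at 2.75 times background in both lists, with 1244 bp covered in HFD-O304 and 2293 bp in HFD. The hormone genes Gcg, Sst, Ppy, Pyy, Iapp and Ghrl had no promoter peak in either list.

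The transcription factors of beta cell identity kept their promoter marks. Of 25 genes, 22 had shared promoters, with a median log2 change of 0.026, Foxa1 and Hnf4a had none, and Esrrg, a nuclear receptor of beta cell maturation, was gained at 2.46 times background. That median fell to -0.004 when levels were centred on all shared regions. No member was called. Mafa, an activator of insulin transcription, came nearest, with 3.55 times background in HFD-O304 and 2.92 times in HFD (0.28, 0.081 to 0.48). The Mafa locus also held 2 gained regions beyond the 3′ end of the gene, centred 3.18 and 5.60 kb from the start site, at 2.78 and 2.53 times background, and 1 lost region at -15.4 kb, at 2.35 times. Summed over all regions nearest to Mafa and within 100 kb, fragments above background came to 23.2 per 1000000 kept fragments in HFD-O304 and 16.7 in HFD.

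At other factors the called peaks differed in breadth rather than height. The Isl1 promoter stood at 3.73 times background in HFD-O304 and 3.39 times in HFD, over 2150 bp against 1081 bp. Neurod1 covered 3204 bp against 2045 bp at 2.91 and 2.73 times. For Isl1 the locus sum was 7.26 against 2.57 fragments per 1000000, with 2 gained and no lost regions. Pax6 had 1 peak of 17.6 kb in HFD-O304 where HFD had 3 peaks of 14.4 kb in sum, and Glis3 and Mlxipl had lower locus sums in HFD-O304, 3.11 against 4.90 and 2.47 against 4.74. Pdx1 and Nkx6-1 stood at 3.07 and 3.09 times and at 4.36 and 4.20 times, within counting error. For scale, the middle 50% of all 12550 genes with an assigned region had log2 ratios of this sum between -0.33 and 0.30, and the housekeeping genes with signal in both lists spread far beyond it, from -1.57 at Eef2 and -0.69 at Rpl13a to 0.69 at Actb and 1.71 at B2m.

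**Figure D2:**
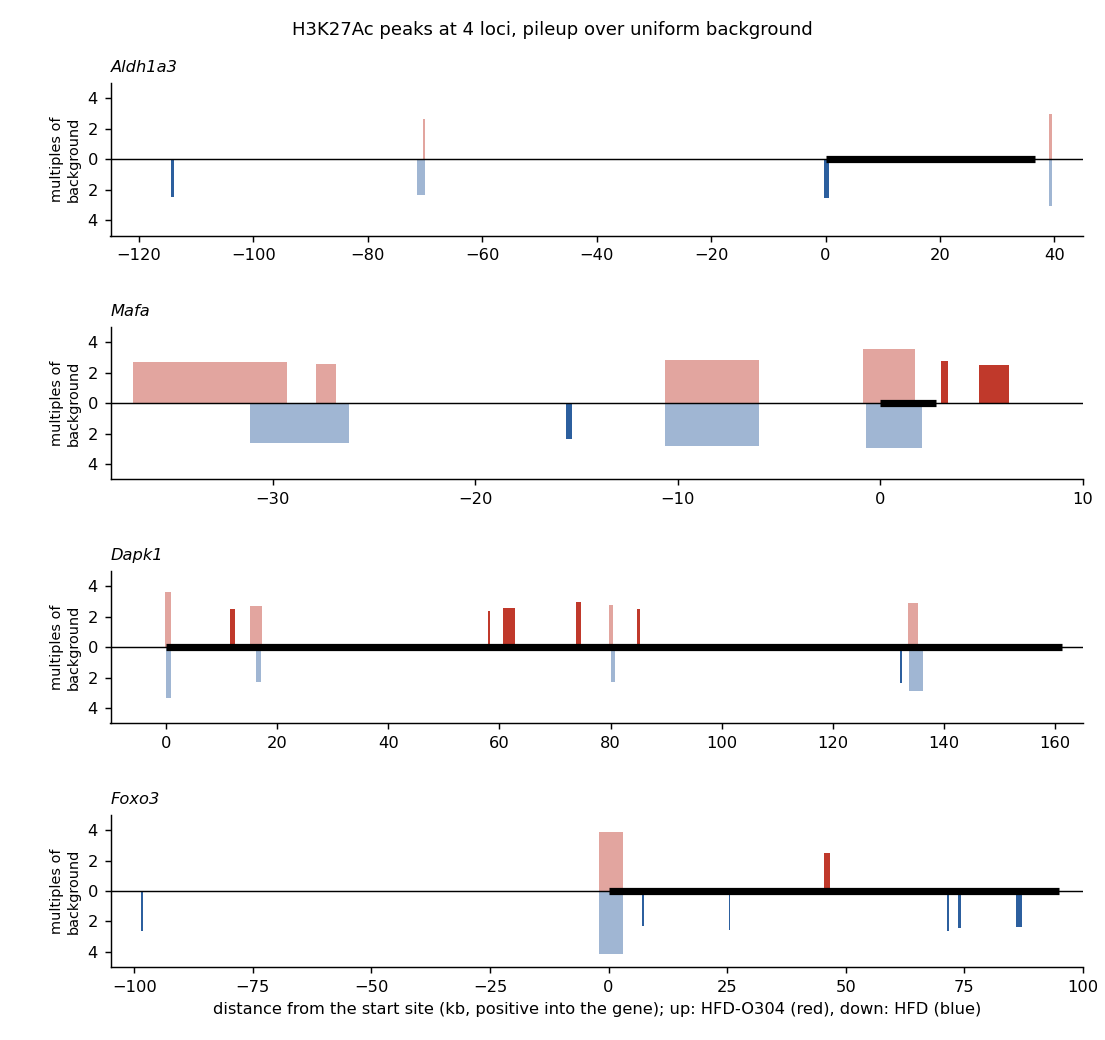
H3K27Ac peaks at Aldh1a3, Mafa, Dapk1 and Foxo3 by distance from the start site in kb, as multiples of the uniform background, upwards for HFD-O304 (red) and downwards for HFD (blue). Full colour marks gained and lost peaks, pale colour shared ones, and the black bar the gene. Aldh1a3 has no HFD-O304 peak at 0 kb, Mafa has 2 gained peaks just past its 3′ end, Dapk1 has 5 gained peaks in its body and Foxo3 has 6 lost peaks.

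The genes of glucose sensing, ion channels and exocytosis moved little. Of 27 channel and glucose-sensing genes, 20 had shared promoters with a median log2 change of 0.032, and of 20 exocytosis genes, 17 with a median of 0.033. Kcnmb2, a subunit of calcium-activated potassium channels, was gained at 2.89 times background. Atp2a2, the calcium pump SERCA2, was the only one of them called, at 4.16 times in HFD-O304 and 5.45 times in HFD (-0.39, -0.57 to -0.21). Its peak was longer in HFD-O304, 2794 bp against 1874 bp, which turned the change in fragments above background to 0.085. Its paralog Atp2a3 had 3.14 and 2.76 times (0.18, 0.014 to 0.35).

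Broad domains at islet genes were nearly equal in height in both groups, but not in called breadth. A look at shared regions of at least 5 kb in either list, a length chosen after the data were seen, found 322, with a median log2 change of 0.018, of which none was called higher and 1 lower. Not all of the 322 lay at islet genes. The region at Sfi1 covered 74.6 kb in HFD-O304 and 74.5 kb in HFD, at 11.4 and 11.5 times background. Among the 322, 20 lay at or nearest to genes of the islet lists, with changes from -0.037 to 0.14. Of these 20, 10 were longer in each group. The longest of the 20 was at Glp1r, the receptor of the incretin GLP-1. It covered 40.3 kb in HFD-O304 and 42.3 kb in HFD at 3.37 and 3.17 times background (0.087, 0.037 to 0.14). An H3K27Me3 peak overlapped this region in both diets. Kcnj11 and Abcc8, the subunits of the ATP-sensitive potassium channel, had promoter domains of 7.67 and 7.73 kb in HFD-O304 against 3.57 and 5.71 kb in HFD at nearly the same height. A pair of other domains nearest to Kcnj11 went the other way, with 6.21 against 9.66 kb and 8.94 against 10.4 kb. Chga had 10.6 against 13.6 kb, at 2.96 and 2.71 times.

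Promoters of the unfolded protein response stood out to the lower side. All 34 measured genes of this list, which cover ER chaperones, folding enzymes and stress sensors, had shared promoters. The median log2 change was -0.061, and 24 of 34 (70.6%) lay below 0, against 44.8% of all genes. The median stayed below 0 in scaling by kept fragments alone (-0.055), in fragments above background (-0.12) and over promoters with 1 peak in each list that matched over at least 50% of the longer (-0.046). These promoters were strong, with a median level of 3.83 times background, and at 3.5 to 4 times 48.6% of all shared promoters lay below 0. Dnajc3 and Pdia3, a co-chaperone and a disulfide isomerase, stood at 3.52 against 4.11 times and at 3.82 against 4.40 times in HFD-O304 against HFD. Manf, Hsp90b1 and Hspa5, the last the chaperone BiP, had changes of -0.16, -0.16 and -0.12. No member was called lower, and each of these intervals held 0. The locus sum of fragments above background per 1000000 was lower in HFD-O304 at Manf (2.88 against 2.95) and Hspa5 (2.63 against 2.88). At Hsp90b1 it was slightly higher (0.80 against 0.78). Atf6, a sensor of ER stress, was the only call, at 3.64 and 2.77 times (0.39, -0.058 to 0.83), and its interval held 0 as well. The locus sum of Atf6 was 0.68 against 0.65, a log2 ratio of 0.073. Xbp1, a transcription factor of this response, stood at 4.83 and 5.32 times, yet its region covered 3905 bp in HFD-O304 and 1781 bp in HFD, and its fragments above background came to 7.996 and 4.12 per 1000000.

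Of 26 genes of the AMPK pathway, 25 had shared promoters, with a median of 0.045 and -0.023 in fragments above background. The catalytic subunit Prkaa1 stood at 3.36 times background in HFD-O304 and 4.15 times in HFD (-0.30, -0.60 to 0.0050), and the other catalytic subunit Prkaa2 at 3.52 and 3.12 times. The regulatory subunit Prkag1 was called higher, at 3.73 and 2.96 times (0.33, -0.066 to 0.73). Crtc2, a coactivator of CREB that AMPK-related kinases hold in the cytoplasm, was called higher as well, at 4.31 and 3.25 times (0.41, 0.019 to 0.80). Genes of mitochondrial biogenesis and fat oxidation had a median of -0.010 over 19 shared promoters, those of lipid and cholesterol synthesis 0.019 over 22, and those of insulin and growth factor signalling 0.029 over 19. Hmgcs1, the synthase of the sterol pathway, stood at 4.82 against 3.87 times (0.319, just under the limit of a call), but over 598 bp in HFD-O304 and 2163 bp in HFD. The growth factor receptor Egfr stood at 3.42 against 2.75 times (0.31, -0.019 to 0.64), but at -0.18 in fragments above background.

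Cell cycle genes had 22 shared promoters of 40, with a median of 0.056. Of the 40, 3 were lost and 2 gained, beside 2.93% lost and 2.39% gained over all genes. With promoters of 2500 bp these counts were 3 and 1. The lost ones were Ccna2, Mcm6 and E2f2, genes of cyclin A2, the replicative helicase and a transcription factor of S phase. They stood at 2.51, 2.90 and 2.52 times background in HFD, and E2f2 kept 2 shared regions within 100 kb. Cdk6 and Cdkn1c were gained. Cdkn1b, the gene of the inhibitor p27, stood at 3.11 times in HFD-O304 and 3.73 times in HFD (-0.26, -0.50 to -0.021). Immediate early genes had a median of -0.037 over 25 promoters, which turned to 0.034 in fragments above background. Crem, a cAMP-responsive regulator, was called lower, at 3.99 against 5.06 times (-0.34, -0.55 to -0.14), and Npas4, which responds to membrane depolarisation, higher, at 3.37 against 2.58 times (0.38, 0.091 to 0.68). Among 19 clock genes the median was 0.0094. Per3 was called higher, at 5.88 against 4.30 times background (0.45, 0.19 to 0.71), and Npas2 lower, at 2.62 against 3.28 times (-0.32, -0.59 to -0.068). The Per3 peak was 750 bp long in HFD-O304 and 1480 bp in HFD, so that its fragments above background fell by 0.41 on the log2 scale.

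Among genes that beta cells normally keep off, genes of dedifferentiation and genes of other cell types, most promoters had a peak in both lists or in neither. The gained and lost ones numbered 2 and 0 of 20 disallowed genes, 1 and 1 of 11 dedifferentiation genes, 2 and 0 of 28 acinar and ductal genes and 1 and 2 of 24 endothelial and stromal genes, beside 2.39% gained and 2.93% lost over all genes. Of 20 disallowed genes, 12 were shared, with a median of 0.037, and Cxcl12 and Zcchc24 were gained at 2.59 and 2.37 times background. Ndrg2 was called higher, at 3.19 against 2.55 times (0.32, -0.095 to 0.74). Among the genes of dedifferentiation, Fev, a transcription factor of endocrine progenitors and of serotonergic neurons, was gained at 2.59 times. Of 28 acinar and ductal genes, 20 had no promoter peak, Krt19 and Muc1 were gained, and Epcam, an adhesion molecule of epithelia, was called lower, at 3.70 against 4.93 times (-0.41, -0.77 to -0.047). Of 24 endothelial and stromal genes, 20 had none, Erg was gained, and Vim and Mmp14 were lost, each at 2.42 times. Of 20 immune genes, 19 had none in either list. The promoters of Cxcl12, Zcchc24, Fev, Esrrg, Erg, Vim and Mmp14 carried H3K27Me3 peaks in both diets, as did Aldh1a3, while Ins1, Scg2, Slc30a8 and Kcnmb2 carried none in either. Housekeeping genes had a median of 0.017 over 16 promoters, with 1 call, Ppia, at 3.19 against 4.08 times (-0.36, -0.65 to -0.072). Over 293 listed genes with a shared promoter, 6 (2.05%) were called higher and 6 (2.05%) lower, near the shares over all genes.

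**Figure D3:**
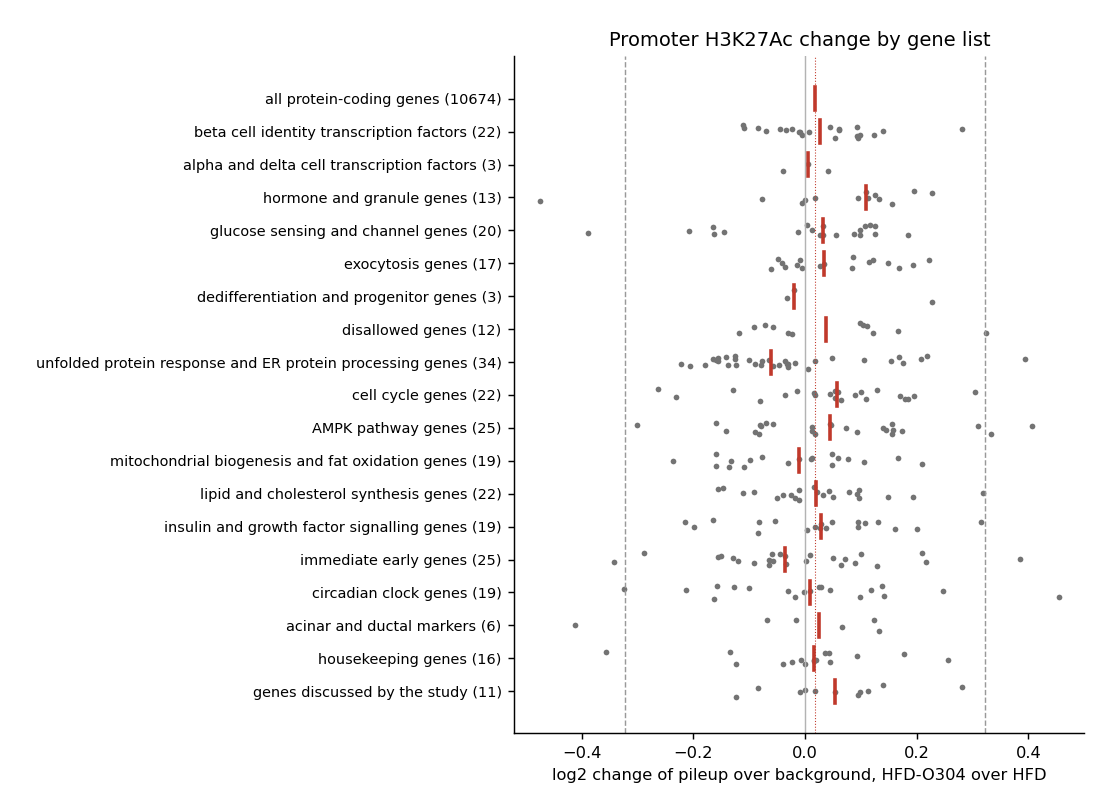
Log2 change of promoter H3K27Ac (pileup over background, HFD-O304 over HFD) for each gene with a shared promoter, by gene list, with the number of genes in brackets. Each point is a gene, the red bar the list's median, the dotted line the median of all genes (0.018) and the dashed lines a log2 change of 0.322 either way. Hormone and granule genes have a median of 0.11 and unfolded protein response genes one of -0.061.

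**Figure D4:**
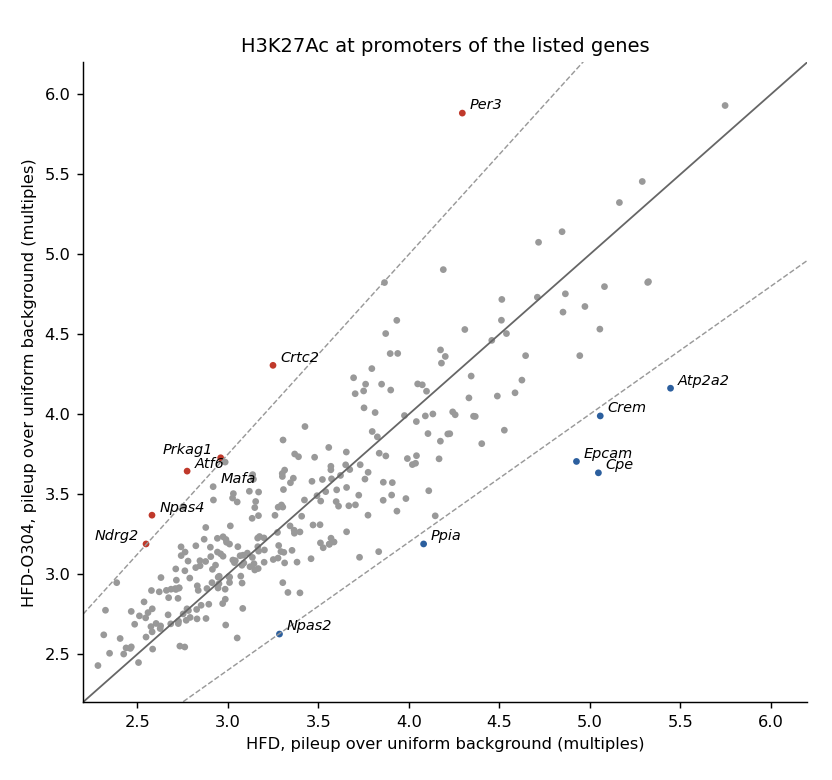
Pileup over uniform background at the same promoters, HFD on the horizontal and HFD-O304 on the vertical axis. The solid line marks equal levels and the dashed lines a log2 change of 0.322 either way. The 6 genes called higher (red) and the 6 called lower (blue) are named, as is Mafa, and all others lie between the dashed lines.

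The largest changes of shared promoters were named among 6563 regions with 1 peak in each list, at least 100 estimated fragments in both and less than 50% repeat-masked bases. Since they were ranked by the change, their values are a description. On the higher side Ppp1r16a, a regulatory subunit of protein phosphatase 1, stood at 3.74 times background in HFD-O304 and 2.46 times in HFD (0.60, 0.26 to 0.95). Dip2a followed with 4.24 and 2.83 times (0.58), and Cyb5b, a cytochrome b5 of the outer mitochondrial membrane, with 3.87 and 2.73 times (0.50). Stxbp5l, or tomosyn-2, which binds SNARE proteins of exocytosis, stood at 4.15 and 2.97 times (0.48). Kif13a, a kinesin, rose in both measures, with 3.96 and 2.86 times background and 3.03 against 1.48 fragments above background per 1000000. Cox14, an assembly factor of cytochrome oxidase, Retreg1, a receptor of ER autophagy, Ppp1r9a and the shared promoter of Nup88 and Rpain had changes between 0.45 and 0.46. Ppp2r5c, a subunit of protein phosphatase 2A, stood at 4.20 and 3.04 times (0.46), but over 2023 bp against 3295 bp, which turned its change in fragments above background to -0.057.

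On the lower side stood Etnk1, an ethanolamine kinase, with 4.22 times background in HFD-O304 and 5.97 times in HFD (-0.50, -0.72 to -0.28). Fndc3b had the highest level of these promoters, 6.51 times in HFD and 4.65 times in HFD-O304 (-0.49, -0.66 to -0.31), over peaks of nearly the same length. Cyld, a deubiquitinase of NF-kB signalling, stood at 3.53 against 4.86 times and Cirbp, a cold-inducible RNA-binding protein, at 4.43 against 6.003 times. Dnajc13, Vps4b, Clta and Stam, which act in endosomal sorting and clathrin coats, had changes of -0.46, -0.45, -0.43 and -0.42. These 4 were noticed together only after their values were seen. Scyl3 had -0.43. Kif1bp stood at 3.62 against 5.12 times (-0.50), and its longer peak in HFD-O304 turned the change in fragments above background to 0.26. The intervals of all 20 named promoters left out 0, as the choice of extremes favours.

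**Figure D5:**
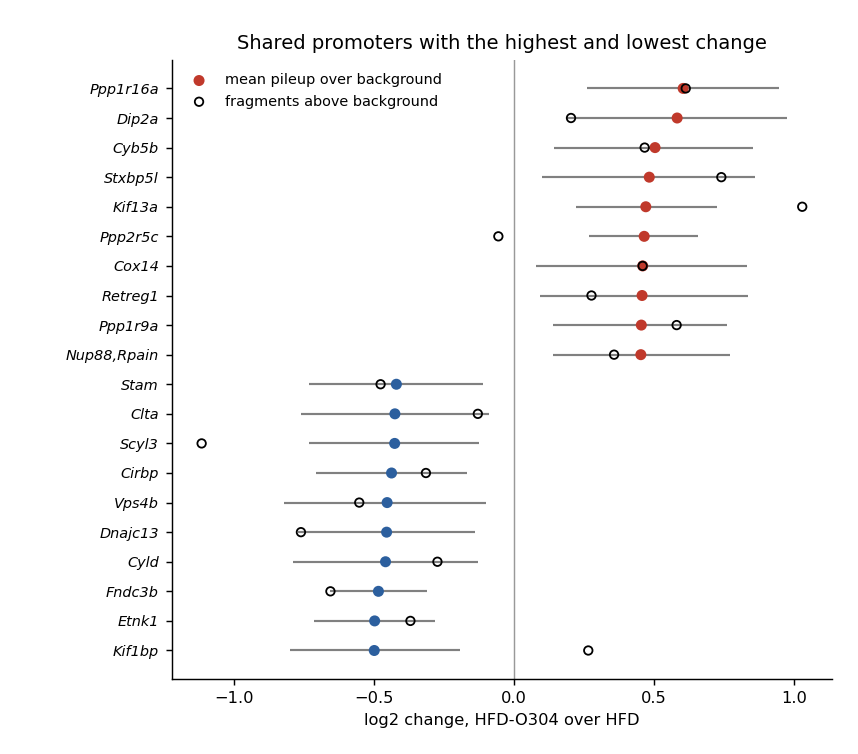
The 10 shared promoters with the highest and the 10 with the lowest log2 change of mean pileup over background (filled points, with 95% counting intervals), and the log2 change of fragments above background at the same promoters (open circles). The open circles of Ppp2r5c and Kif1bp lie on the other side of 0.

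Outside promoters, 1767 shared regions met the same criteria. A region at -30288 bp from the start of Slc47a1, a transporter of organic cations, had 4.86 times background in HFD-O304 and 3.51 times in HFD (0.47, 0.12 to 0.82). One at -5628 bp from Fkbp5, the glucocorticoid-inducible co-chaperone of the steroid receptors, had 4.28 and 3.29 times (0.38, 0.050 to 0.71). Fkbp5 was also among the strongest gained promoters, with a peak of 2112 bp at 2.52 times background, so that both Fkbp5 regions leaned to HFD-O304. Regions near Shf, Tmem163 and Btbd17 had changes of 0.42, 0.42 and 0.38, the last with an interval that held 0. On the lower side, a region at -60791 bp from Ywhaz had 2.65 against 3.46 times (-0.39, -0.61 to -0.16), one nearest to Noct, at -204353 bp, 2.80 against 3.67 times (-0.39), and one upstream of Scd4, a stearoyl-CoA desaturase, 2.78 against 3.48 times (-0.32, -0.69 to 0.037). A region near Ier5 had -0.31 in level, over 1989 bp against 1342 bp, and 0.10 in fragments above background. At Sox13 a change of -0.35 in level turned to 0.46 in fragments above background.

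The strongest gained and lost regions were wide rather than high. Gained promoters with the most fragments above background were those of Sept9, a septin, Slc26a1, an anion transporter, Fkbp5, Ap1s3, an adaptor of clathrin coats, Dcps, Zfp607a, Sgms1, a sphingomyelin synthase, and Tnfrsf14, with levels from 2.52 to 2.95 times background. The highest were Tnfrsf14 with 2.95 and Ap1s3 with 2.94 times, both 1.30 times above the HFD limit. Lost promoters were those of Sprr2a3, Zfp235, Abr, Zfp790, Rex2, Snupn and Crxos and of 1 predicted gene. Rex2 had the highest level, 3.17 times background in HFD, 1.34 times the HFD-O304 limit, and the others lay between 2.42 and 2.84 times. The zinc finger genes, Sprr2a3 and Rex2 belong to families with near-identical copies, where the placing of fragments is uncertain.

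Outside promoters, gained regions nearest to Dmrtb1, Cyp3a41b, Urb1, Slc6a6, Phactr1 and Tcp10c covered 3157 to 4426 bp at 2.42 to 2.66 times background. The region at Slc6a6, the taurine transporter, was the highest of them. Lost regions nearest to Dnal4, Tcp10c, Ctdsp2, Zfp868 and Tcp10a had 2.39 to 2.55 times background over 3606 to 4539 bp. The lost Plekha1 region, whose centre is printed above, was the exception. It lay at chr7:130834362-130835733, was 1372 bp long and stood at 4.94 times background in HFD, 2.08 times the lowest level called in HFD-O304. An H3K27Me3 peak overlapped it in both diets.

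Gained and lost regions clustered at some genes. Of 12550 genes with a region within 100 kb of their start site, 46 had at least 3 more gained than lost regions and 90 at least 3 more lost than gained. Lost regions were also the more numerous in total, 4902 against 3577 gained, an order that turned with a common limit (3398 against 4287). The counts per gene were not set against the length of the gene. Dapk1, a calmodulin-regulated kinase of cell death, had 5 gained regions and no lost one within that distance, the gained ones all inside the gene between 11.5 and 85.4 kb from its start site, at 2.40 to 2.98 times background. Its locus sum was 8.41 fragments above background per 1000000 in HFD-O304 against 2.52 in HFD, while its promoter stood at 3.61 and 3.37 times. A lost region of 433 bp lay farther off, 132 kb into the gene. Il1r1, the interleukin-1 receptor, had 6 gained and 1 lost region with a sum of 13.6 against 8.64. Rflna and Usp29 had 5 gained regions each, and Sec14l1 and Zfp516 had 5 gained and 1 lost. The highest level among these regions was the 2.98 at Dapk1.

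Clusters of lost regions were found at Tcp10c and Trhde, with 12 lost and 3 gained regions each, at Zfp981 with 7 and 1, at Zfp991 with 6 and 0, at Dnah8 with 9 and 4, and at Cyp3a41b with 7 and 2. H3K27Me3 peaks of HFD islets overlapped 10 of the 12 lost regions at Tcp10c and all 6 at Zfp991. They overlapped 5 of 7 at Zfp981, 5 of 7 at Cyp3a41b, 4 of 12 at Trhde and 1 of 9 at Dnah8. Of all lost regions, 28.4% overlapped such a peak. Tcp10c and the zinc finger genes lie in families of near-identical copies. Foxo3, a transcription factor that insulin signalling keeps out of the nucleus, was picked after its values were seen: it had 6 lost and 1 gained region, 5 of the lost ones inside the gene and 1, wholly repeat-masked, at -98.3 kb. The Foxo3 promoter stood at 3.88 times background in HFD-O304 and 4.11 times in HFD.

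Summed over a locus, 56 named genes had at least 20 fragments above background per 1000000. On the higher side were Rpusd4, Pdia5, Polr3k, Pax6, Zfp516 and Maml3. Rpusd4 (432 against 211 fragments) and Polr3k rested on repeat-masked regions for 99.8% and 96.2% of their signal. Pdia5, a disulfide isomerase, had 26.6 against 20.9, Maml3, a coactivator of Notch, 23.3 against 19.3, and Pax6 22.8 against 18.1. On the lower side Cmip had 17.7 in HFD-O304 against 26.6 in HFD (-0.58), Irf2bp2 17.3 against 24.1, Agap1 17.5 against 24.5 and Dnah8 20.0 against 27.5, followed by Zfp980 and Sprr2a2. With the minimum set to 5 fragments, chosen after the data were seen, the highest were Dapk1 (1.74), Glrx5 (1.47), a glutaredoxin of iron-sulfur cluster assembly, Golm1 (1.22), Smim18 (1.18) and Deptor (1.07), an inhibitor of mTOR. The lowest were Fam122a (-1.55), Oxtr (-1.51), the oxytocin receptor, and Nfil3 (-1.48), a repressor in the clock output. Nfil3 had 2.79 fragments in HFD-O304 against 7.77 in HFD, at 3.39 and 3.93 times background at its promoter.

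Gained and lost regions were alike in the motifs searched, and both differed from shared regions in a minority of them. Among promoters the observed over expected CpG ratio had a median of 0.72 in shared, 0.62 in gained and 0.63 in lost regions. The motifs searched in the central 300 bases, on both strands, were the TATA box (TATAAA), the CCAAT box, the GC box of SP1 (GGGCGGGG), the full cAMP response element (TGACGTCA) and its core (TGACG, which lies within it), the ETS motif (CCGGAAG), part of the NRF1 site (GCGCATGC), the E-boxes CACGTG and CAGATG and a further E-box CAGCTG, the FOXA motif (TGTTTAC), the homeodomain motif (TAATTA), parts of the MAF (TGCTGA) and RFX (GTTGCCA) sites, the AP-1 motif (TGACTCA), the CTCF core (CCCTCTGGT) and the NFAT motif (TGGAAA). For all 17 motifs the Wilson intervals of gained and lost regions overlapped, at promoters and elsewhere, with regions of at least 50% repeats left out. Against shared promoters they overlapped for 12 of 17 motifs in gained and for 12 in lost promoters, and outside promoters for 14 and 13. The GC box GGGCGGGG was found in 23.0% of shared promoters (22.1 to 23.8), 14.5% of gained (11.8 to 17.7) and 14.5% of lost ones (12.0 to 17.4). The ETS motif CCGGAAG was in 11.1% of shared (10.5 to 11.8), 7.16% of gained and 6.64% of lost promoters. The motif TGCTGA, part of the site of MAF proteins, was the more frequent in promoters of 1 list, with 14.03% of shared (13.4 to 14.7), 19.7% of gained (16.6 to 23.2) and 20.7% of lost ones (17.7 to 23.97). Outside promoters the E-box CAGATG was in 25.4% of gained, 24.7% of lost and 23.3% of shared regions, with overlapping intervals.

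Promoters in 1 list only overlapped H3K27Me3 more often than shared promoters. An H3K27Me3 peak of HFD-O304 islets overlapped 4.28% of shared promoter regions (3.902 to 4.70) and 23.0% of gained ones (19.8 to 26.7). A peak of HFD islets overlapped 4.79% of shared (4.39 to 5.23) and 28.1% of lost promoter regions (24.8 to 31.6). The overlap was as frequent with the diet in which the acetylation was not called: 24.8% of gained promoter regions overlapped a peak of HFD islets and 28.4% of lost ones a peak of HFD-O304 islets. Outside promoters the order differed, since 45.7% of the shared intergenic regions overlapped an H3K27Me3 peak of HFD-O304 islets, against 31.9% of the gained ones. Of these shared intergenic regions, 40.8% were repeat-masked over at least 50% of their bases.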

How the data were processed

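ChIP-seq peak lists for H3K27Ac in HFD and HFD-O304 islets were used, with the H3K27Me3 lists for overlap only. The authors merged 2 replicates a group, and the deposited lists (GRCm38) come from MACS 2.1.2 in broad mode with a q-value limit of 0.01, per the file headers, and no input control was named in them. The deposited pileup is a coverage signal in fragments, the deposited −log10 p and q-values and the fold ratio came from the authors' caller, and the fold was used only for a second background. Fragments kept after duplicate removal, times fragment size, over 1.87e+09 bases gave the uniform background. Regions were joined at 1 bp overlap, with pileup averaged by length, on chromosomes 1 to 19. Start sites are those of protein-coding transcripts of GENCODE M21 (basic set); promoters reach 1000 bp and loci 100 kb. Intervals for changes are exact binomial intervals on estimated fragments; shares have Wilson intervals. PCR fragments are not independent molecules, so both cover counting error only. Named regions were the extremes of fixed rankings (10 promoters and 6 other regions each way, 8 and 6 gained or lost), plus members of 20 gene lists, 1 of them the 16 genes the study discusses. The rule, members and lists were chosen with earlier results of these data known. The scripts (Python 3.11.15, numpy 2.4.6, pandas 2.3.3, scipy 1.17.1) were tested on simulated lists.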

Additional observations from a re-analysis of the deposited data

How the results depend on the processing

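No paired analysis was possible because each list was called on merged replicates, which also left no single replicate to leave out. When a peak counted as present, in both lists, only from a −log10 q of 5 upwards, 8640 shared, 1226 gained and 2003 lost regions were found, with promoter shares of 50.9% of gained and 48.9% of lost regions, and 1039 genes had a lost promoter. With this limit applied to the peak present, and absence judged against all peaks, 237 gained and 443 lost regions were found, with promoter shares of 30.8% and 24.4%. The promoter share of lost regions was 15.3% with a common lowest level and 14.5% with lists of equal size. Without repeat-masked peaks the shares were 19.3% of gained and 18.9% of lost regions, and with promoters of 2500 bp they were 18.9% and 16.1%. Centred on the shared regions, the median log2 change was 0 by construction, with 206 regions higher and 278 lower. In fragments above background the median was -0.0060, with 4015 higher and 4087 lower, since this measure adds breadth to height. The median was 0.035 with scaling by kept fragments alone, 0.027 in regions with 1 matching peak in each list, 0.018 in regions with a −log10 q of at least 5 in both lists (144 higher and 116 lower) and 0.025 with the background implied by the deposited fold, an alternative chosen after seeing the data. At 1.5-fold, 6 regions were higher and 4 lower, and 126 higher and 98 lower calls had a counting interval that left out 0. In fragments above background the direction reversed at Ppp2r5c (-0.057), Kif1bp (0.26), Sox13 (0.46) and Ier5 (0.10, not a call), and at the listed genes Cpe (0.71), Atp2a2 (0.085) and Per3 (-0.41), and the summed signal of Polr3k reversed within 50 kb (-0.49). Where not given by construction, the cause was not tested. At single regions the depth limits what could be shown, with a median counting interval of 0.34 to either side on the log2 scale.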
